A study of Mus musculus with 4 samples.

Results

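Cholesterol and fatty acid synthesis genes were followed in ribosome profiling libraries of mouse epidermal keratinocytes. Members were taken by gene symbol from a list of 35 enzymes and regulators, 23 of the sterol pathway and 12 of fatty acid synthesis. Of these, 33 were in the table of 10327 genes, 21 sterol genes and all 12 fatty acid genes. Fdps and Idi1, 2 enzymes of the isoprenoid steps, were not analysed here. The 4 libraries came from the epidermis of newborn mice at postnatal day 0 and formed 2 groups of 2. Control mice (Ctrl, genotype K14Cre,Mettl14F/+) carried a Cre transgene under a keratin 14 promoter and 1 floxed copy of Mettl14. Conditional knockout mice (cKO, K14Cre,Mettl14F/F) carried the same Cre and 2 floxed copies, so both groups carried Cre and no group was free of the floxed allele. The K14 promoter is active in basal keratinocytes, and cells of other lineages in the preparation keep Mettl14. METTL14 is a subunit of the complex that places N6-methyladenosine on mRNA.

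The sterol pathway condenses acetyl-CoA units into isoprenoids, joins these into squalene, and closes and trims that chain into cholesterol. Its genes are driven by SREBP2, the product of Srebf2, a membrane-bound factor that SCAP escorts out of the endoplasmic reticulum when sterols are low and that INSIG proteins hold back when sterols are high. SREBP1, the product of Srebf1, drives the parallel genes of fatty acid synthesis. In epidermis cholesterol, free fatty acids and ceramides are packed together between the cells of the stratum corneum as the water barrier.

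Footprints are mRNA stretches shielded by ribosomes from RNase, so the value of a gene is a share of the library's footprints and mixes mRNA level with ribosome density. The deposited unit is CPM, with the counts of each library scaled to a sum of 1000000. Whole reads recovered from these values numbered 542074 to 933574 per library, and 1 read was worth between 1.07 and 1.84 CPM. Mettl14 itself had 26 and 17 reads in Ctrl 1 and 2 and 5 and 4 reads in cKO 1 and 2, in the direction of the labels. Its log2 change of -1.83 was not called (limma adjusted p = 0.122). Keratinocyte markers were abundant (Krt10 at 35677 CPM or more in every library). Of 10 adipocyte markers listed, 3 were in the table, and Adipoq, Plin1 and Fabp4 were not. Every gene in the table has at least 1 read in each library, so a missing marker does not show that its cells were absent. Markers of other cells were present, with Ctrl sums of 4641 and 2929 CPM for fibroblasts and 844 and 1511 CPM for melanocytes. Whether the libraries of a group are of separate animals is not stated in the labels, so the p-values measure only the spread between these libraries, which may be technical.

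Promoter sequence is a feature that the choice of members did not use. RefSeq promoters (GRCm38.p6, 250 bases before to 50 after a start) were at hand for 27 of the 33 members, 18 sterol and 9 fatty acid genes. The box CCAAT, the letters that factor NF-Y recognises, was found on either strand in 16 of 18 sterol genes (88.9%) and 6 of 9 fatty acid genes (66.7%), against 42.5% of the 8129 genes of the table with a promoter. Counted by promoter, since some genes have several starts, it was in 16 of 24 sterol and 7 of 12 fatty acid promoters, against 37.2% of 10389. The GC box GGGCGG was in 94.4% of sterol genes, 55.6% of fatty acid genes and 71.1% of all genes. The sterol regulatory element core TCACNCCAC was in 1 of 18 sterol genes (5.56%), Hmgcs1, and 0 of 9 fatty acid genes, against 1.43% of all genes. Counted by promoter, it was in 1 of 24 sterol promoters, against 1.16% of all promoters. The letters describe these windows only, and no binding was measured. The 250 bases before the start are printed for 4 genes, 5′ to 3′ on the gene's strand, with the matches of CCAAT and of the TCACNCCAC core in capitals (a CCAAT box on the other strand shows as its reverse complement). Hmgcs1 is shown for its TCACNCCAC match, Msmo1 as the member with the highest level per length, Cyp51 as 1 of the 4 members with an unadjusted p under 0.05, and Fasn as the member with the most footprints.
Hmgcs1 (chr13:119690101-119690350, plus strand): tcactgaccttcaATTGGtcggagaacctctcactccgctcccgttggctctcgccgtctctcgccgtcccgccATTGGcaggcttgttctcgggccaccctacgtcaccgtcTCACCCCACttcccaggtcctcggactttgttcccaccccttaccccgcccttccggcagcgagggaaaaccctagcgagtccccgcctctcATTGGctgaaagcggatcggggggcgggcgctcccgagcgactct
Msmo1 (chr8:64733579-64733828, minus strand): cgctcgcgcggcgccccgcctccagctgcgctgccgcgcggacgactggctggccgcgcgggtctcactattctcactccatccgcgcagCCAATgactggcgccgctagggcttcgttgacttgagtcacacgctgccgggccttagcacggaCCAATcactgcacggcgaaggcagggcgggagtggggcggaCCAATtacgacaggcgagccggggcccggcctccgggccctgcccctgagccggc
Cyp51 (chr5:4104698-4104947, minus strand): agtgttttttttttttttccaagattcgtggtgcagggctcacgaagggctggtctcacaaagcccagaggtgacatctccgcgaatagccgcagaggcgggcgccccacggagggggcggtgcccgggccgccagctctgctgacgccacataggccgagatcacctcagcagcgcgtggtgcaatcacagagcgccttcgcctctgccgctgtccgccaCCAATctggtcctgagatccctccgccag
Fasn (chr11:120824548-120824797, minus strand): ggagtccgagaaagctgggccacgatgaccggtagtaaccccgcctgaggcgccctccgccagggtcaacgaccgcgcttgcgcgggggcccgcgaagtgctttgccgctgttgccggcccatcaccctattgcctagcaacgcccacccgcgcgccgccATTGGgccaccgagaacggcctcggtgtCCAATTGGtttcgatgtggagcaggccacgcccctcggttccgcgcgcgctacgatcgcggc
Hmgcs1 and Msmo1 hold 3 CCAAT boxes each in these stretches and Cyp51 1. Fasn has 3 matches that are not all separate, since CCAATTGG reads as CCAAT on both strands and is counted on each. In Hmgcs1 the TCACNCCAC match begins at position -137 from the start.

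Across the members the footprint level spanned a wide range. Per kilobase of coding sequence, which allows genes of different length to be set side by side, Msmo1 (methylsterol monooxygenase) and Hmgcs1 (HMG-CoA synthase, an early step) were highest, at 382 and 379 CPM per kb on average in Ctrl. Their Ctrl libraries overlapped (309.5 and 454 for Msmo1, 369 and 390.3 for Hmgcs1), so the order of these 2 is not resolved. Dhcr7, Scd1, Scd2 and Acly followed at 246, 237, 219 and 196 CPM per kb, and the ranges of Dhcr7, Scd1 and Scd2 also overlapped. At the other end stood Fads2 at 2.61, Acaca at 6.16, Tm7sf2 at 12.6, Insig1 at 12.7 and Fads1 at 12.8 CPM per kb. By level not corrected for length, Fasn ranked at the 99.2nd percentile of all genes and Fads2 at the 5.98th. Fads2 rested on 2 to 4 reads per library and Insig1 on 3 to 8, too few for a comparison of groups.

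**Figure D1:**
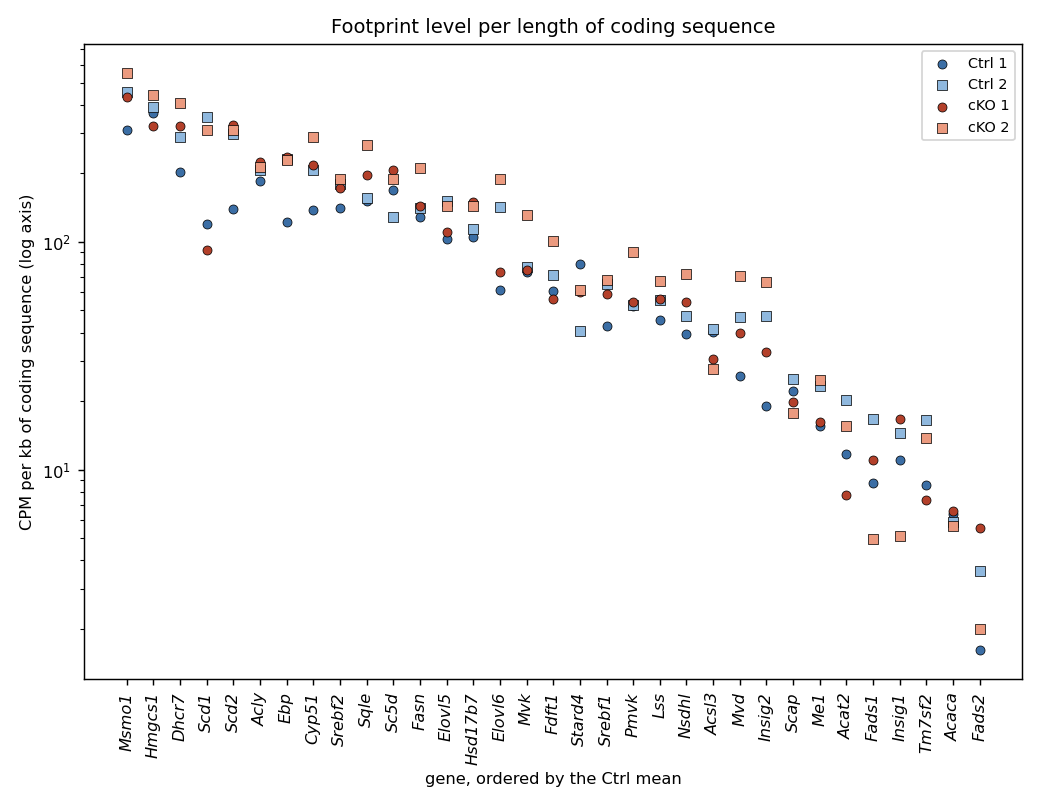
Footprint level of the 33 members in CPM per kilobase of coding sequence (vertical log axis), ordered from left to right by the Ctrl mean, with 1 point per library (circles library 1, squares library 2, blue Ctrl, red cKO). Levels run from 382 for Msmo1 to 2.61 for Fads2 in the Ctrl mean, and the 4 points of a gene mostly lie closer together than genes at the ends of the order.

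Some members share sequence with other genes, and how reads with several matches were counted is not given in the sources used here. Of all stretches of 28 bases in a gene's longest coding sequence, 77.8% in Acaca also occur in a transcript of another annotated gene (mainly Gm5182), 79.6% in Acat2 (Acat3), 70.9% in Me1, 52.8% in Fdft1, 49.0% in Elovl6, 41.0% in Scd1 and 35.2% in Scd2 (both with other Scd genes). The share was smaller in Insig1 (14.7%), Sc5d (6.55%) and Fads2 (2.07%), and 0 in the other 23 members, against 98.4% for Fdps and 79.6% for Idi1. Exons of 11 members overlap those of another annotated gene, among them Fdft1 (with Ctsb), Cyp51 and Srebf1. The levels of the genes with shared stretches, Acaca among the lowest of them, are uncertain for this reason. The longest run common to Scd1 and Scd2 is 147 bases, coding positions 523 to 669 of Scd1 and 532 to 678 of Scd2, far longer than a footprint, and is printed to show what a footprint from it cannot tell apart.
Scd1 and Scd2 shared run (chromosome 19): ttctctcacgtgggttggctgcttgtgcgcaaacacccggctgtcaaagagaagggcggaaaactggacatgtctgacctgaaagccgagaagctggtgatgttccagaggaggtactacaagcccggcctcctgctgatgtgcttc

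The question put to the 2 groups was whether ribosome footprints on these genes differ between cKO and Ctrl. No sterol gene and no fatty acid gene passed limma over all genes (Benjamini-Hochberg adjusted p under 0.05), where 0.368% of genes were called higher and 0.300% lower. The smallest adjusted p was 0.226 among sterol genes (Sqle) and 0.281 among fatty acid genes (Scd2). edgeR with TMM and DESeq2 on the recovered reads called 0 members too (beside 1.58% of genes higher and 0.126% lower by edgeR, 0.804% and 0.0387% by DESeq2, which gave an adjusted p to 3119 of the 10327 genes), with smallest adjusted p-values of 0.056 (edgeR) and 0.126 (DESeq2), both for Sqle. At an unadjusted limma p under 0.05 there were 3 sterol genes (Sqle, Cyp51 and Dhcr7) and 1 fatty acid gene (Scd2), all with higher cKO values, against 3.50% of all genes higher and 10.8% lower. A miss does not show that the groups were alike: the 95% interval of the log2 change was 0.12 to 1.03 for Sqle, 0.08 to 1.06 for Cyp51 and 0.12 to 1.04 for Dhcr7. These intervals are not adjusted for the number of genes and are those of the 3 sterol genes with the smallest p. The intervals of all other sterol genes held 0, such as -0.44 to 0.43 for Hmgcs1 and -0.23 to 0.82 for Lss.

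The sterol genes, a list chosen with earlier results of these data known, had a higher median than the table as a whole. Their median log2 change was 0.40, against -0.24 over all genes, and it was positive in 16 of 21, against 32.1% of all genes. In 8 of the 21 (38.1%) both cKO values exceeded both Ctrl values and in 1 (4.76%) both lay below, against 11.1% and 34.1% of all genes. The median rested in part on single libraries, standing at 0.15 without Ctrl 1 (all genes -0.28) and at 0.16 without cKO 2 (all genes -0.22), and at 0.43 and 0.44 without Ctrl 2 and cKO 1. On a scale centred on each library's median gene it was 0.61, with all genes at -0.04. Together the sterol genes took 2989 and 3661 CPM in Ctrl 1 and 2, and 3701 and 4617 CPM in cKO 1 and 2. Both cKO sums lay above both Ctrl sums, but cKO 1 exceeded Ctrl 2 by little. Both cKO values also exceeded both Ctrl values in 46.7% of glycerolipid synthesis genes, 37.5% of NADPH supply and 33.3% of acyl-CoA synthetases and carriers. Both lay below in 6.67%, 50% and 16.7% of these. The share above was 31.6% for other fatty acid synthesis and elongation and 11.8% for fatty acid oxidation. It was 7.69% for SREBP processing, 7.14% for sterol uptake and 0 for the isoprenoid branch. A high share was thus not particular to the sterol genes.

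**Figure D2:**
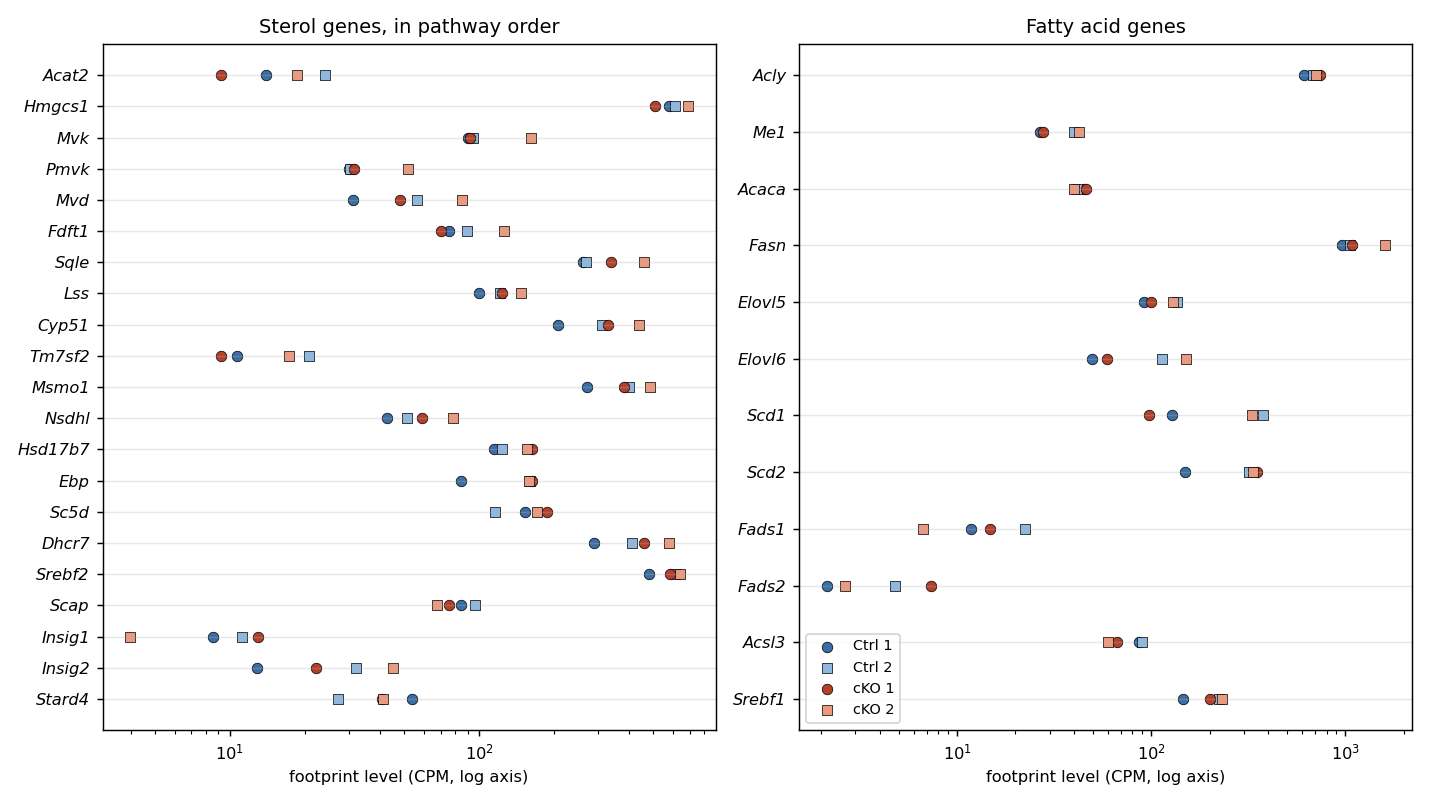
Footprint level of each member (horizontal log axis, CPM) in the 4 libraries, with sterol genes in pathway order on the left and fatty acid genes on the right. Sqle lies between 260.3 and 459 CPM with both cKO points to the right, and Scd1 splits by library number (97.8 and 127 CPM in both libraries 1, 330 and 377 CPM in both libraries 2) and not by group.

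Among the 6 measured enzymes before and at squalene formation the log2 changes ran from -0.45 to 0.60 with a median of 0.29. Hmgcs1 (ENSMUSG00000093930, chromosome 13, 119690379 to 119708260, plus strand) had 575 and 609 CPM in Ctrl and 505 and 688 CPM in cKO. Its cKO libraries lay on either side of the Ctrl libraries, and its log2 change of -0.01 had a 95% interval of -0.44 to 0.43. Acat2, a thiolase that supplies its substrate, had 13.9 and 24.0 CPM in Ctrl and 9.22 and 18.6 CPM in cKO, on 5 to 15 reads, and its groups overlapped as well. The kinases Mvk and Pmvk and the decarboxylase Mvd, which turn mevalonate into the isoprene unit, had log2 changes of 0.40, 0.41 and 0.60. cKO 2 was the highest library for all 3: Mvk had 90.0, 94.5, 92.2 and 161 CPM in the order Ctrl 1, Ctrl 2, cKO 1 and cKO 2. Without cKO 2 the change of Mvk was 0.0002, and that of Mvd was 0.19 without cKO 2 and 0.19 without Ctrl 1. Fdft1, squalene synthase, had 76.1, 89.7, 70.1 and 126 CPM in that order, with a change of 0.19 that turned to -0.23 without cKO 2.

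The 10 enzymes after squalene had a median log2 change of 0.44, positive in 9, against 32.1% of all genes. In 7 of them both cKO values exceeded both Ctrl values, against 11.1% of all genes. Whether they differed from the enzymes before squalene was not tested. Sqle, squalene epoxidase and the first of these steps (ENSMUSG00000022351, chromosome 15, 59315077 to 59331192, plus strand), had 260.3 and 268 CPM in Ctrl and 338 and 459 CPM in cKO. The groups were apart, although cKO 2 lay farther from cKO 1 than cKO 1 from the Ctrl libraries. Its log2 change was 0.57 ± 0.22 (SE; limma adjusted p = 0.226) and ran from 0.35 to 0.80 when 1 library was left out. Cyp51, the lanosterol demethylase (ENSMUSG00000001467, chromosome 5, 4081145 to 4104746, minus strand), had 208 and 312 CPM in Ctrl and 328 and 436 CPM in cKO. Here the lower cKO library was close to the higher Ctrl library, and the change of 0.57 ± 0.23 (limma adjusted p = 0.270) was 0.28 without Ctrl 1. Exons of Cyp51 overlap those of Akap9, so its reads may be shared. Dhcr7, the reductase whose substrate is also the skin's precursor of vitamin D (ENSMUSG00000058454, chromosome 7, 143823145 to 143848410, plus strand), had 289 and 410.1 CPM in Ctrl and 459 and 578 CPM in cKO. Its groups were apart as well, with a change of 0.58 ± 0.22 (limma adjusted p = 0.231), and of 0.33 without Ctrl 1.

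The remaining enzymes after squalene had unadjusted limma p-values over 0.05. Lss, which closes squalene epoxide into lanosterol, had 99.6 and 122 CPM in Ctrl and 124 and 148 CPM in cKO, a log2 change of 0.29. Nsdhl and Hsd17b7, which act in removal of the methyl groups, had changes of 0.53 and 0.42, and Sc5d, a desaturase, 0.42. In these 4 genes both cKO values exceeded both Ctrl values, and limma adjusted p-values ran from 0.435 to 0.631. Msmo1 had 272 and 399 CPM in Ctrl and 380.02 and 485 CPM in cKO, and Ebp, a sterol isomerase, 84.6 and 160.2 CPM in Ctrl and 162 and 158 CPM in cKO. Msmo1 and Ebp overlapped between groups, and for Ebp Ctrl 1 alone was low, so that its change of 0.46 was 0.0006 without Ctrl 1. Tm7sf2, a sterol reductase, was the exception in sign at -0.23, on 5 to 13 reads.

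The 4 regulators stood on both sides of 0, with a median log2 change of -0.07. This median includes Insig1 at -0.38, whose 3 to 8 reads per library are too few for a comparison, so its sign is not resolved. Srebf2 had 479 and 609 CPM in Ctrl and 585 and 642 CPM in cKO, a log2 change of 0.18 with a 95% interval of -0.25 to 0.61. Scap had 84.6 and 96.1 CPM in Ctrl and 75.6 and 67.8 CPM in cKO, the only sterol gene with both cKO libraries below both Ctrl libraries, with a change of -0.33 that is -0.08 relative to the median gene. Insig2 had 12.9 and 32.0 CPM in Ctrl and 22.1 and 45.2 CPM in cKO. Its libraries differed more within each group than the groups did, and its change of 0.61 was -0.02 without Ctrl 1. Stard4, a sterol carrier, had 53.6 and 27.2 CPM in Ctrl and 40.6 and 41.2 CPM in cKO, so the Ctrl libraries enclosed those of cKO.

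**Figure D3:**
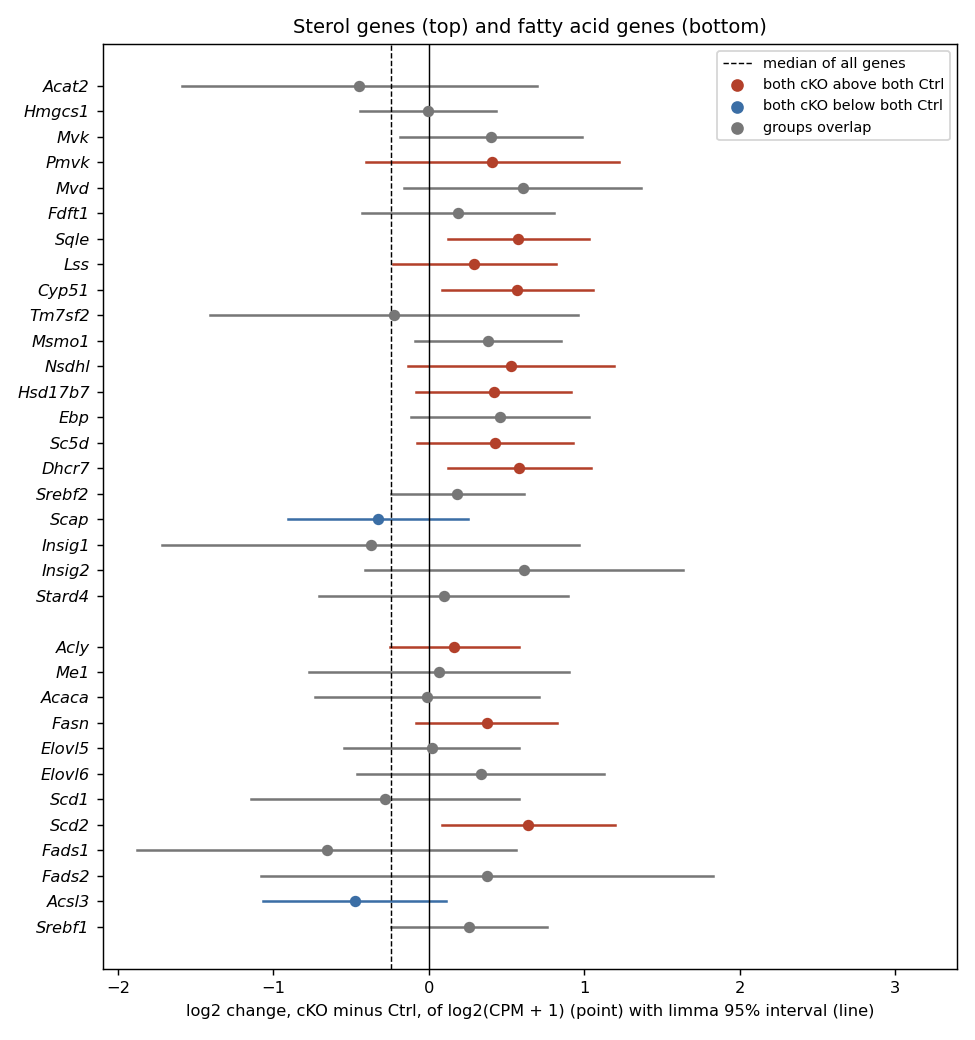
Log2 change (cKO minus Ctrl, of log2(CPM + 1)) of each member with its limma 95% interval, coloured by whether both cKO libraries lay above (red) or below (blue) both Ctrl libraries. The dashed line is the median of all genes (-0.24), and the intervals of Sqle, Cyp51, Dhcr7 and Scd2 lie above 0 before any adjustment for the number of genes.

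The fatty acid genes were mixed. In 9 of 12 the log2 change lay above the median of all genes. With edgeR and TMM their median was 0.40, with all genes at 0.002. In the main limma fit their median was 0.11, against -0.24 over all genes. The change was positive in 8 of 12, among them Fads2 on 2 to 4 reads per library, against 32.1% of all genes. The median was -0.14 without Ctrl 1 (all genes -0.28), -0.02 without cKO 2 (all genes -0.22), 0.39 without Ctrl 2 and 0.28 without cKO 1. Both cKO values exceeded both Ctrl values in 3 genes (25.0%; Fasn, Acly and Scd2) and below in 1 (8.33%; Acsl3), beside the 11.1% and 34.1% of all genes. Their summed level was 2314 and 3113 CPM in Ctrl and 2789 and 3625 CPM in cKO, so the groups overlapped.

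Fasn, the fatty acid synthase that builds palmitate (ENSMUSG00000025153, chromosome 11, 120805846 to 120824547, minus strand), had 964 and 1061 CPM in Ctrl and 1075 and 1592 CPM in cKO. cKO 1 was barely above Ctrl 2 and cKO 2 stood alone, and the log2 change of 0.37 ± 0.22 (SE; limma adjusted p = 0.448) was 0.09 without cKO 2. Acly, which makes cytosolic acetyl-CoA from citrate, had 613 and 684 CPM in Ctrl and 743 and 706 CPM in cKO, a change of 0.16. Acaca, the acetyl-CoA carboxylase that makes malonyl-CoA, stood at 45.0, 41.7, 46.1 and 39.9 CPM in the order Ctrl 1, Ctrl 2, cKO 1 and cKO 2, with overlapping groups. Me1, malic enzyme and a source of NADPH, had a change of 0.07. Srebf1 had 146 and 223 CPM in Ctrl and 201 and 231 CPM in cKO, overlapping, with a change of 0.26 that was -0.05 without Ctrl 1. Acsl3, an acyl-CoA synthetase, had 86.8 and 89.7 CPM in Ctrl and 66.4 and 59.8 CPM in cKO. Its groups were apart, with a change of -0.48 ± 0.28 (limma adjusted p = 0.452), or -0.23 once the median gene is subtracted.

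The desaturases Scd1 and Scd2, which place the first double bond in saturated chains and lie in 1 gene cluster on chromosome 19 (44394455 to 44407879, minus strand, and 44293674 to 44306864, plus strand), had different patterns over the libraries. Scd1 had 127 and 377 CPM in Ctrl and 97.8 and 330 CPM in cKO, so that within each group library 2 stood above library 1 by 1.56 and 1.74 on the log2 scale, more than the groups differed (-0.28 ± 0.42, SE; limma adjusted p = 0.795). Scd2 had 150.0 and 320.4 CPM in Ctrl and 351 and 334 CPM in cKO. Only Ctrl 1 stood low, and the log2 change of 0.64 ± 0.27 (limma adjusted p = 0.281) was 0.09 without Ctrl 1 and 1.18 without Ctrl 2, where limma called it (adjusted p = 0.00603, with 1.01% of genes called higher). The difference between the changes of these 2 genes was not tested. Elovl6, which elongates saturated and monounsaturated chains, had 49.3 and 114 CPM in Ctrl and 59.0 and 152 CPM in cKO, and so resembled Scd1 in having both libraries 2 high. Elovl5, an elongase of polyunsaturated chains, had 92.1 and 136 CPM in Ctrl and 99.6 and 129 CPM in cKO, with the cKO values inside the Ctrl range. Fads1, a desaturase of polyunsaturated chains, had 11.8 and 22.4 CPM in Ctrl and 14.8 and 6.65 CPM in cKO, on 5 to 14 reads.

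The spread within groups was itself shared by many members. Library 2 stood above library 1 in both groups for 15 of the 21 sterol genes and 6 of the 12 fatty acid genes, against 30.7% of all genes. The sterol median of that difference was 0.29 in Ctrl and 0.40 in cKO on the log2 scale, with all genes at 0.07 and -0.01. For fatty acid genes it was 0.59 in Ctrl and 0.07 in cKO.

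**Figure D4:**
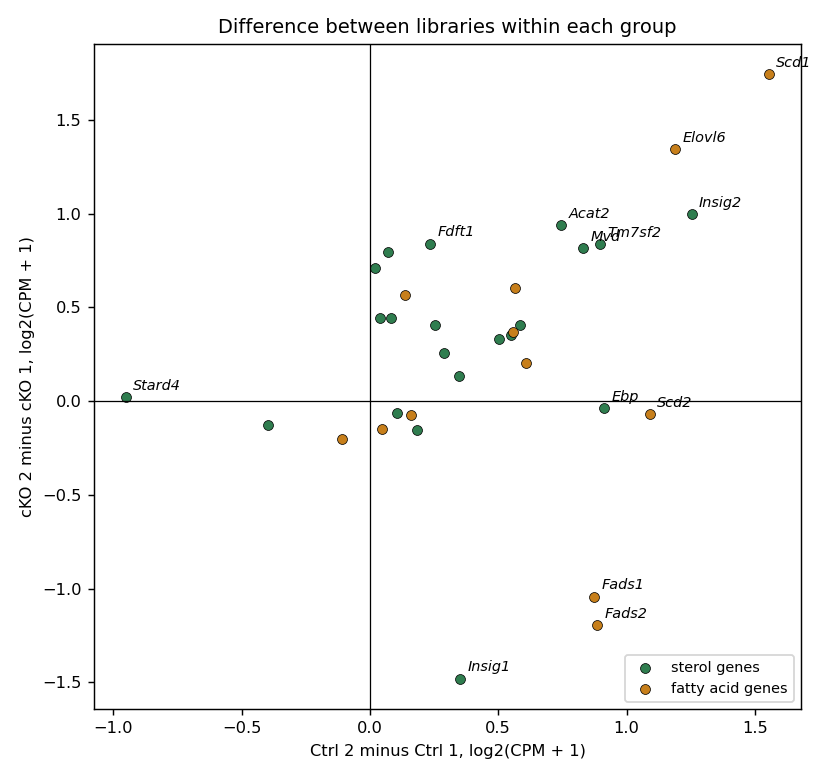
Difference between the 2 libraries of a group, library 2 minus library 1 in log2(CPM + 1), for Ctrl (horizontal) and cKO (vertical), with 1 point per member and names for differences over 0.8. Most sterol genes lie to the upper right of the origin, Scd1 lies farthest out there (1.56 and 1.74), and Insig1, Fads1 and Fads2, with few reads, lie below.

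Markers of keratinocyte layers also differed between the groups. In bulk samples fewer cells of a type and less RNA per cell cannot be told apart. The 14 granular and cornified markers summed to 10881 and 14592 CPM in Ctrl and 19348 and 26459 CPM in cKO. Of these markers 7 rose by limma, where 0.368% of all genes did, among them Sprr1b (log2 change 1.58) and Spink5 (1.38). The count was 3 without Ctrl 1 and with a mean of 10 CPM or more, 11 with edgeR and TMM or median centring, and 0 without cKO 1 or cKO 2, where limma called no gene of the table. The 9 spinous markers ran from 128456 to 139705 CPM in Ctrl and from 192880 to 204586 CPM in cKO, with 0 called by limma, 4 higher by edgeR with TMM and 5 higher by DESeq2. The 11 basal markers ran from 24288 to 27220 CPM in Ctrl and from 12762 to 14250 CPM in cKO, with Krt5 and Bcam called lower by limma (0.300% of all genes); limma called 0 of them after median centring and without cKO 1 or cKO 2, and 1 without Ctrl 1, and edgeR with TMM and DESeq2 called 1 each. The 10 fibroblast markers ran from 2929 to 4641 CPM in Ctrl and from 1383 to 2131 CPM in cKO, with Dcn, Sparc and Postn called lower by limma (3 by edgeR with TMM, 2 by DESeq2, 7 by limma without Ctrl 2, 2 without Ctrl 1 and 0 without cKO 1 or cKO 2). The sums of sebocyte markers (9 in the table, 2678 and 2703 CPM in Ctrl, 1620 and 2521 CPM in cKO, nearly all from Krt79), adipocyte markers (3 in the table, 52.5 to 103 CPM), melanocyte markers (8 in the table, 844 to 1511 CPM) and immune markers (8 in the table, 219 to 569 CPM) held no called gene. Red blood cell markers (6 in the table) summed to 528 CPM in cKO 1, against 81.7 to 121 CPM in the other libraries. Of these, 0 were called by limma in the main fit or by DESeq2. edgeR called 2 higher with TMM and 1 with library totals. No endothelial or skeletal muscle marker listed was in the table. The part of any of these in the values of the sterol and fatty acid genes was not tested.

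Neighbouring pathways were read from lists in the same fit. Of the 19 other genes of fatty acid synthesis and elongation none passed limma over all genes (4 higher and 1 lower at an unadjusted p under 0.05), while edgeR with TMM, DESeq2 and limma after median centring (1.02% of genes higher) each called 3 higher, which were Elovl1, Elovl4 and Elovl7. The median log2 change of this list was 0.20, with 11 genes above 0 and 8 below, and was -0.25 without Ctrl 1 and 0.14 without cKO 2. Both cKO values exceeded both Ctrl values in 6 genes (31.6%) and lay below in 4 (21.1%), against 11.1% and 34.1% of all genes. Elovl1 and Elovl4, elongases of very long chains that feed ceramides, were the most abundant members of the list. Elovl1 had 1244 and 1532 CPM in Ctrl and 2300.4 and 2842 CPM in cKO, with both cKO values above both Ctrl values (log2 change 0.89, limma adjusted p = 0.0532). Elovl4 had 1156 and 1541 CPM in Ctrl and 2125 and 2553 CPM in cKO (0.80, limma adjusted p = 0.092). Among 15 genes of glycerolipid synthesis, with a median log2 change of 0.40 (0.17 without Ctrl 1 and 0.16 without cKO 2) and 0 called by limma (3 higher at an unadjusted p under 0.05; 1 by edgeR with TMM, by DESeq2 and by limma after median centring or without Ctrl 2), Dgat2, which makes triglyceride, had 372 and 534 CPM in Ctrl and 789.6 and 856 CPM in cKO (0.88, limma adjusted p = 0.0532), and Agpat3 had a change of 0.56.

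The lists of genes that move, sense or use sterols held 0 genes called by limma in the main fit. The 14 genes of sterol uptake, transport and storage had a median log2 change of -0.05. In each direction 1 of them had an unadjusted limma p under 0.05. Lrp10, named after its values were seen, was called higher by edgeR with TMM and by DESeq2. In this list 1 gene was also called higher by edgeR with library totals and by limma after median centring or with the replicate block. Lrp1 at -0.07 and Npc1 at 0.04 were the most abundant. The 13 genes of SREBP processing and sterol sensing had 6 log2 changes above 0 and 7 below, with 0 called by limma, edgeR or DESeq2 and 0 at an unadjusted limma p under 0.05, including Sec24c at 0.04. The 10 genes of the isoprenoid branch had -0.26 with 0 called by all 3 tools (1 lower at an unadjusted p under 0.05), with Zmpste24 at -0.16 and Fnta at -0.13. Acyl-CoA synthetases and carriers, 12 genes, had 0.36 (0.12 without Ctrl 1 and 0.18 without cKO 2) with 0 called by all 3 tools (2 in each direction at an unadjusted p under 0.05; 1 higher by limma without Ctrl 2), with Acsl1 at 0.46 and Fabp5 at 0.58. Fatty acid oxidation, 17 genes, had -0.23 with 0 called by all 3 tools (1 lower at an unadjusted p under 0.05), with Hadha at -0.10 and Acaa2 at -0.42. Of 8 genes of NADPH supply 1 fell by limma, Mthfd1 (log2 change -1.27, limma adjusted p = 0.034), which edgeR with TMM and DESeq2 did not call and whose call was absent without Ctrl 1, cKO 1 or cKO 2 (limma adjusted p = 0.067, 0.532 and 0.552). DESeq2 gave an adjusted p to 2 of the 10 isoprenoid genes, 8 of the 13 of SREBP processing, 10 of the 17 of oxidation, 8 of the 12 acyl-CoA synthetases and carriers and 7 of the 14 of sterol uptake, so the others could not be called by it. With edgeR and TMM, where the median of all genes was 0.002, the medians were 0.15 for sterol uptake, -0.01 for the isoprenoid branch and 0.0008 for oxidation.

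**Figure D5:**
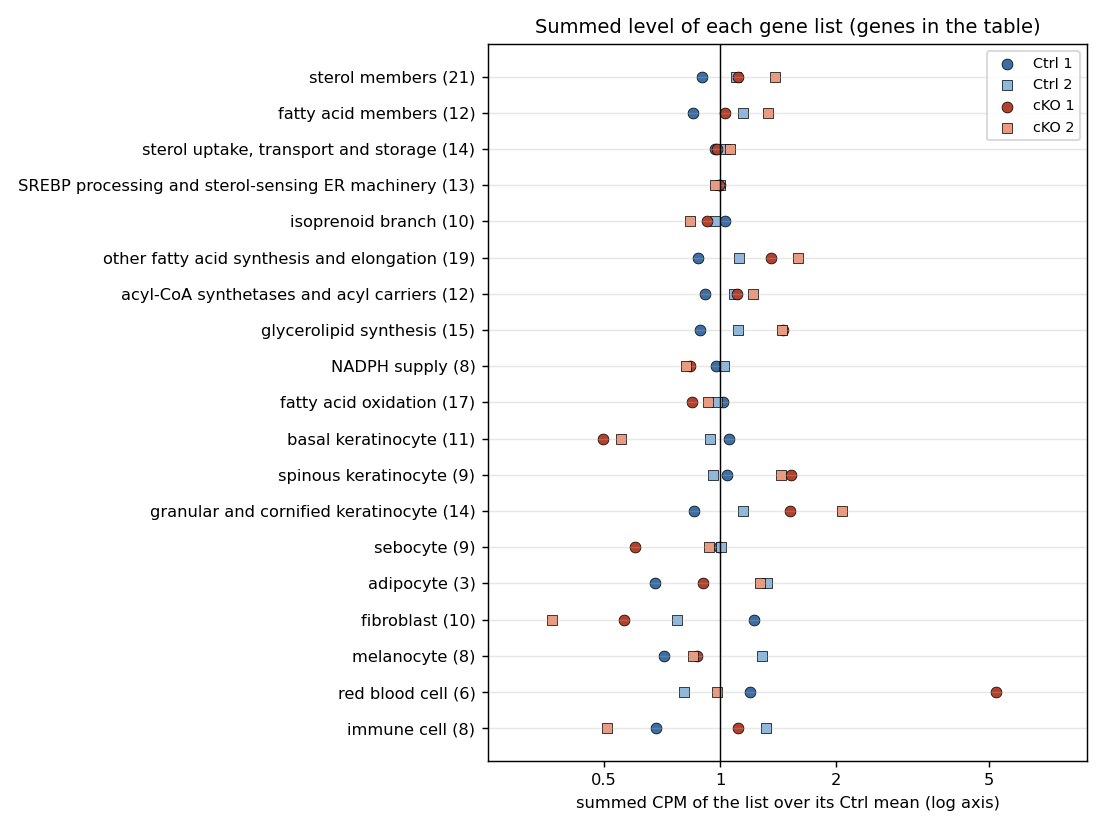
Summed CPM of each gene list in each library, divided by the list's mean over the Ctrl libraries (horizontal log axis), with the number of genes in the table in brackets. Sterol genes reach 1.11 and 1.39 in cKO, fatty acid genes 1.03 and 1.34, and granular and cornified markers 1.52 and 2.08. Glycerolipid synthesis reaches 1.45 and 1.45, other fatty acid synthesis and elongation 1.36 and 1.60, and NADPH supply 0.83 and 0.81.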

How the data were processed

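Ribosome profiling was done on 4 libraries, 2 Ctrl and 2 cKO. Per the labels' protocols, lysates made with cycloheximide were digested with RNase I and fragments were selected on a gel. The submitters' processing notes name fastp, HISAT2 and HTSeq, and GRCm38 as build. For versions, strand setting and treatment of reads with several matches, nothing is stated. The authors deposited CPM values per gene, and each column sums to 1000000 over the 10327 listed genes. Every value was a whole multiple of 1 read (100% of values, tolerance 1e-06), so reads were recovered. No listed gene was at 0 in any library. The control columns are headed WT and were matched by number to Ctrl, the only other group.

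The members and lists were chosen with earlier results of these data known. Symbols, positions and coding lengths came from GENCODE for GRCm38 (10323 of 10327 identifiers matched). limma 3.58.1 (R 4.3.3) with a mean-variance trend was fitted to log2(CPM + 1) of all genes (a minimum of 1 CPM in 2 libraries removed 0), with group as the only term, and p-values were adjusted by Benjamini-Hochberg. Fold changes on this scale understate those of low genes. Alternatives were median centring, edgeR 4.0.16 with TMM or library totals and DESeq2 1.42.0 on recovered reads, a pseudocount of 5, a mean of 10 CPM or more, a replicate block, and each library left out. An exact permutation test of 2 against 2 cannot go below p = 0.333 and was not used. All members in the table are named; other lists are named by their called genes (up to 4) or, if none, their 2 most abundant, except 1 gene that is not reported here. limma and edgeR were also run on simulated counts with log2 changes of 1 or 2 in either direction. These changes are larger than that of any member, so the run does not show whether changes of the members' size would be called.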

Additional observations from a re-analysis of the deposited data

How the results depend on the processing

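No member was called by limma in the main setting, and this held with median centring, edgeR under both scalings, DESeq2, a pseudocount of 5 and a filter at a mean of 10 CPM, which left out Fads2 and Insig1. The exceptions were the replicate block and 1 omitted library. Libraries with the same number deviated together (r = 0.19 across 10327 genes), but with 2 pairs and no label that pairs them the samples share only a number. Under this block limma called 3 sterol genes higher (Sqle, Cyp51 and Dhcr7; adjusted p = 0.0164, 0.017 and 0.0103) and 1 fatty acid gene higher (Scd2; 0.0165), beside 257 genes higher and 582 lower over all genes. With 1 library left out, 0 to 1 fatty acid genes were called higher and 0 sterol genes, while calls over all genes ran from 0 to 104 higher and from 0 to 44 lower; a lone library is then assumed to vary like the others.

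Over all genes 38 were called higher and 31 lower in the main fit. Counts were 105 and 8 with median centring, 163 and 13 with edgeR and TMM, 62 and 56 with edgeR and library totals, 83 and 4 with DESeq2, and 14 and 9 with a mean of 10 CPM or more; the cause was not tested. The sterol median stayed between 0.15 and 0.65 in every setting run, and the fatty acid median between -0.14 and 0.40. DESeq2 gave no adjusted p for 6 sterol and 4 fatty acid genes. Depth limits the low members.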
